A study of Mus musculus with 4 samples.

Results

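The genes described here are the canonical histone genes of the mouse Hist1, Hist2, Hist3 and Hist4 clusters. They were taken as the rows of the deposited table whose gene symbol starts with Hist1h, Hist2h, Hist3h or Hist4h and whose mean normalized count over all 4 libraries was at least 10. Of 22690 rows, 68 carried such a symbol and 54 reached that mean. By symbol, the 54 genes are those of the linker histone H1 (5 genes) and the core histones H2A (12), H2B (14), H3 (11) and H4 (12). In the GENCODE M21 annotation of GRCm38, 45 of them lie in the Hist1 cluster on chromosome 13, 6 in Hist2 on chromosome 3, 2 in Hist3 on chromosome 11 and 1 in Hist4 on chromosome 6. Of these gene models, 50 have 1 exon.

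Core histones pack DNA into nucleosomes, and H1 binds the DNA that enters and leaves them. Most cluster genes are replication-dependent: they are transcribed in S phase, and their mRNAs end in a conserved stem-loop instead of a poly(A) tail. The stem-loop binding protein Slbp recognises that hairpin, and the mRNAs are degraded when DNA synthesis ends. Some cluster genes can also give spliced or polyadenylated transcripts outside S phase.

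RNA was sequenced from C57BL/6 retinal cells at postnatal day 2, flow-sorted at 4N, the DNA content of cells which have copied their genome and not yet divided. Wild type is the label of the 2 GFP-negative libraries, and the 2 GFP-positive ones carry the label Casz1 cKO, a conditional knockout of a zinc finger transcription factor. GFP and genotype change together, so the sorted fraction and the knockout cannot be told apart. What drives the deletion or GFP, and the number of animals behind each library, is not given here. Every library came from dissected retinas and was held briefly in serum-free medium. All were poly(A)-selected, with a stranded kit that enriches mRNA. The values below are therefore levels among transcripts that passed this enrichment, and how much histone mRNA it kept was not measured. In pooled cells, fewer cells of a type and less RNA per cell cannot be told apart.

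The columns bear tags, written A and B, each shared by 1 wild-type and 1 cKO library. Reads in genes numbered 75832360 to 89473701 in 3 libraries and 22326119 in cKO library A. In that library 1 read is worth 2.79 normalized counts and 9179 genes were at 0, against 0.661 to 0.759 counts and 5793 to 6169 genes elsewhere. Casz1 stood at 13162 and 11995 in wild type A and B and at 8687 and 10772 in cKO A and B (limma log2 fold change −0.38, SE 0.19, adjusted p = 0.771). These reads cover the whole gene, so they do not check the deleted part.

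Where the annotated models run far enough past the stop codon, their 3 prime ends show which cluster genes keep the histone hairpin. The search was for 16 bases with GG at positions 1 and 2, TT at 6 and 7, T at 9, A at 11 and CC at 15 and 16, any base elsewhere, whose outer 6-base arms pair with each other (G-T pairs allowed). It covered the transcript strand within 100 bases after the stop codon. The hairpin is given here for the 4 genes with the highest means that hold it, for 5 further H2A, H3 and H4 genes that show its arms and loops, and for the variant gene H2afx. The capitals mark the 16-base stem-loop, read 5′ to 3′ from GENCODE M21 transcripts (GRCm38).
Hist1h1c: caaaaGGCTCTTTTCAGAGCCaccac
Hist3h2ba: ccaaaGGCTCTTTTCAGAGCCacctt
Hist3h2a: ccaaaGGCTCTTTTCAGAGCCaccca
Hist1h4i: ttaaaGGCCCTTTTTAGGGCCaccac
Hist1h3a: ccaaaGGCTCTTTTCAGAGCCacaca
Hist1h3c: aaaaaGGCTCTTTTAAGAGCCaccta
Hist1h3g: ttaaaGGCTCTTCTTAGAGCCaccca
Hist1h4j: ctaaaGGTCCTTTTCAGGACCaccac
Hist2h2ac: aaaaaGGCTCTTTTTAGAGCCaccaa
H2afx: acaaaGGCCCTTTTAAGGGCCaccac

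The stem-loop was found in 38 of 53 models (71.7%) and in 4 of 21696 other protein-coding genes (0.0184%), which are Gm9507, H2afx, H2bfm and Nemp1. The gene identifier given for Hist2h2bb is Gm42743 in M21, a lincRNA with no stop codon, so that gene was left out of these counts. Of the 41 models with at least 50 bases after the stop, 38 hold the stem-loop and Hist1h2bc, Hist2h2be and Hist1h2bp do not. The 12 models with fewer bases do not hold it, but they end too soon to show most hairpins. They are counted among the 53, and they do not show whether those genes lack the hairpin. The distance from stop codon to stem-loop was 21 to 54 bases, with a median of 31.

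The first arm of the hairpin followed the histone class. It read GGCTCT in all 27 of the H1, H2A, H2B and H3 genes with a stem-loop (3, 8, 8 and 8). In H4 it read GGCCCT in 9 genes and GGTCCT in 2, and GGCTCT in none. The hairpin of H2afx, which encodes the H2A variant of the DNA damage response, has the GGCCCT arm. These are properties of the annotation and used no expression value.

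Many models nevertheless run on past the hairpin. In 30 of 53 the annotated transcript continues for more than 30 bases beyond it. A poly(A) signal, AATAAA or ATTAAA, lies in the last 50 bases of 13 models (24.5%), against 15680 of 21696 other protein-coding genes (72.3%). The 12 models with fewer than 50 bases after the stop are counted as without a signal, though they may be too short to show it. All 5 of the most abundant genes have such a signal, and 8 of the other 48 do. Per kilobase of model, however, the median level was 93.7 normalized counts for the 13 genes with a signal and 97.4 for the 40 without.

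A few genes held most of the histone reads. Hist1h1c, Hist3h2ba, Hist2h2be, Hist3h2a and Hist1h4i together made up 71.2% and 66.2% of the summed count of the 54 genes in wild type A and B, and 66.6% and 69.8% in cKO A and B. The same genes led per kilobase of model, in the order Hist3h2ba at 3850 normalized counts per kb, Hist1h1c at 1716, Hist1h4i at 929, Hist2h2be at 864 and Hist3h2a at 479. In GRCm38 coordinates, Hist3h2ba lies at chr11:58948920-58949533 and Hist3h2a at chr11:58954685-58956830, Hist1h1c at chr13:23738808-23740367 and Hist2h2be at chr3:96221119-96223738, all on the plus strand, and Hist1h4i at chr13:22040636-22041362 on the minus strand. Hist1h2bj followed at 466 normalized counts per kb, the median gene stood at 93.5 and the lowest, Hist1h3d, at 14.1. The lengths the authors counted over are not known, so this order rests on the M21 models. Members were selected on their mean level, so the order is a description.

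At the lower edge, membership turned on a few reads. Just inside the limit, Hist1h2ad had normalized counts of 17.5, 20.0, 0 and 14.5 in wild-type A, wild-type B, cKO A and cKO B, the order used from here on. Hist1h4k had 17.5, 13.8, 0 and 21.8, and Hist1h2bl had 9.87, 6.21, 30.7 and 9.92. Hist1h2bl thus reached a mean of 10 through cKO library A alone. Just outside, Hist1h2bh had 15.2, 9.66, 0 and 13.9, Hist2h2ab had 8.35, 9.66, 0 and 2.64, and Hist1h2ao had 1.52, 2.76, 0 and 6.61. Of the 14 rows outside, 5 were listed at 0 in every library: Hist2h3c1, Hist2h2aa1, Hist2h2aa2, Hist1h2br and Hist1h2aa. For the first 3 of these, 0% of the 50-base stretches of the model are found in no other annotated gene.

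**Figure D1:**
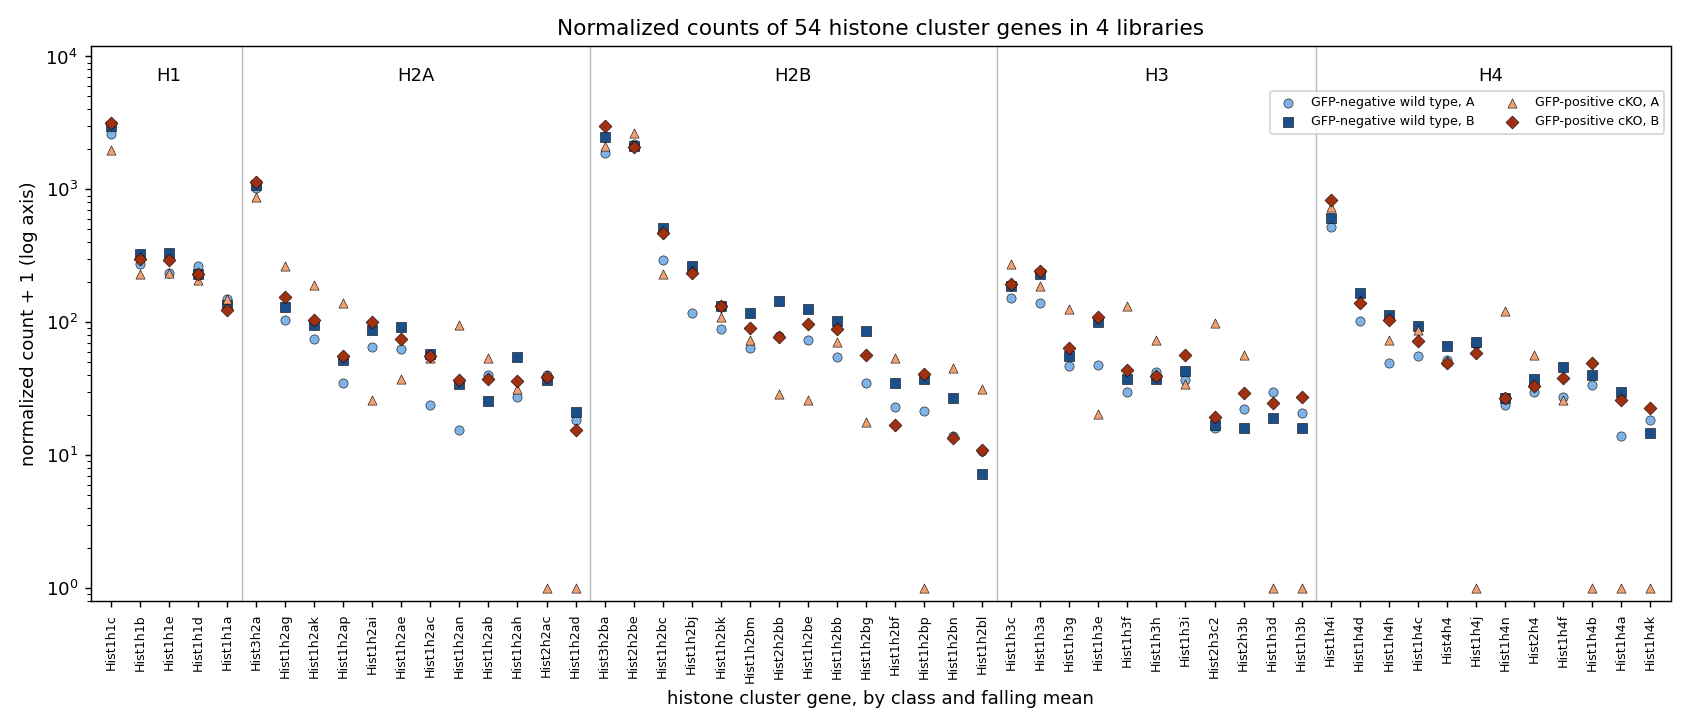
Normalized count plus 1 (log axis) of the 54 histone cluster genes in the 4 libraries, by class and falling mean, 1 point per library. The 5 leading genes stand far above the rest of their classes, and 9 genes lie at the foot of the axis, at 0, in cKO library A.

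Between the groups, the cluster genes as a whole lay close together. Their summed normalized count was 11557 and 13982 in wild type A and B and 12534 and 14625 in cKO A and B. That is 0.0201%, 0.0242%, 0.0201% and 0.0247% of all normalized counts. Both tag B libraries had the higher sums, and the groups overlapped.

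None of the 54 genes passed limma's test at an adjusted p under 0.05, and 0 had an unadjusted p under 0.05. The background was low as well: over all 14480 genes tested 0.0% passed, and 1.89% had an unadjusted p under 0.05. The authors' deposited table likewise has 0 of the 54 at an adjusted p under 0.05. By direction, 28 were higher and 26 lower in cKO (46.7% of all tested genes were higher). The median log2 fold change was 0.09, against −0.03 over all tested genes, and the values ran from −3.19 to 1.41. In 11 genes both cKO libraries lay above both wild-type libraries (17.2% of all tested genes did), and in 5 both lay below (22.3%). The 11 were Hist1h4i, Hist1h3c, Hist1h3g, Hist1h3f, Hist2h3c2, Hist2h3b, Hist1h2ag, Hist1h2ak, Hist1h2ap, Hist1h2an and Hist1h2bl. In all but Hist1h4i the highest library was cKO A, and Hist1h2bl is a member only through that library. The 5 were Hist1h1d, Hist2h2bb, Hist4h4, Hist1h4j and Hist1h2ad, and in all but Hist4h4 the lowest library was cKO A.

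The background depended on the level of the genes. Of the 37 cluster genes with a mean under 100, 18 were higher in cKO (29.3% of all 2156 such genes), 7 without overlap (9.88%), and 4 were lower without overlap (29.1%). Hist1h2bl, a member only through cKO library A, is among the 7. Their median log2 fold change was −0.08, against −0.95 for all genes of that level. Of the 17 with a mean of 100 or more, 10 were higher (49.8% of all 12324 such genes), 4 without overlap (18.5%), and 1 was lower without overlap (21.1%). Their median was 0.13, against 0.00. Low genes in general were thus mostly lower in cKO, while the low cluster genes were split evenly, and this difference was not tested.

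The fold changes depended on the cKO libraries. Without cKO library B, limma called 25 of the 54, 10 higher and 15 lower (39.8% of all genes). Without cKO library A it called 0 (0.373%), 2 had an unadjusted p under 0.05 (4.71%), and 40 of 54 were higher.

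With all 4 libraries, other tools and designs gave the same count of calls as limma. edgeR called 0 of the 54 (0.0% of all genes) and DESeq2 called 0 (0.00691%, which is 1 gene). With the tags as a replicate block 0 were called, and 0 of the 54 had an unadjusted p under 0.05, against 9.5% of all genes.

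H1 binds linker DNA, and its 5 genes summed to 3530, 4011, 2786 and 4093. Hist1h1c had normalized counts of 2607, 2988, 1964 and 3148, the lowest and the highest both in cKO (2798 ± 269 in wild type and 2556 ± 837 in cKO, SD, n = 2 libraries each). Its log2 fold change was −0.17 (SE 0.27, limma adjusted p = 0.831). Hist1h1b stood at 275, 326, 232 and 301, and Hist1h1e at 234, 331, 235 and 293. Hist1h1d, at 265, 231, 207 and 229, was the H1 gene whose cKO libraries both lay below wild type, cKO library B barely so. All 5 H1 fold changes were below 0, with a median log2 of −0.17, and none was larger than its standard error.

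H2A and H2B form the dimers of the nucleosome. H2A genes summed to 1528, 1759, 1755 and 1833 and H2B genes, which held the most reads of any class, to 4941, 6153, 5703 and 6411. Hist3h2ba, an H2B gene of the small Hist3 cluster, had 1864, 2463, 2135 and 2995. Each cKO library was above the wild-type library of its tag, but the groups overlapped (2164 ± 424 and 2565 ± 608, SD, n = 2, log2 fold change 0.24, SE 0.26, limma adjusted p = 0.774). Its neighbour Hist3h2a, which encodes H2A, had 1030, 1082, 869 and 1132 (log2 fold change −0.09, SE 0.23, limma adjusted p = 0.889). Hist2h2be, known from olfactory neurons as a source of an H2B variant, had 2209, 2107, 2640 and 2094. Only cKO library A stood apart there, above the other 3 (log2 fold change 0.12, SE 0.20, limma adjusted p = 0.831).

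The next H2A and H2B genes were far lower and more scattered. Hist1h2bc had 295, 511, 229 and 471, so both tag A libraries lay below both tag B libraries whatever the genotype. Hist1h2bj had 117, 264, 249 and 235, with wild-type library A alone low. Hist1h2ag had 103, 130, 263 and 154, with both cKO libraries above wild type (log2 fold change 0.79, SE 0.46, limma adjusted p = 0.771). Hist1h2ak and Hist1h2ap followed the same order, at 73.6, 94.6, 190 and 104 and at 34.2, 51.1, 140 and 54.9. In each of these 3 genes cKO library A was well above the rest and cKO library B nearer to wild type. Hist2h2bb had 78.2, 145, 27.9 and 76.7, and among the genes lower in cKO it ranked first by limma (log2 fold change −1.18, SE 0.75, adjusted p = 0.771). Its wild-type library A and cKO library B were nearly equal, and since its identifier is that of the lincRNA Gm42743 in M21, its reads may not be those of an H2B gene.

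H3 and H4 form the core tetramer. The H3 sum was 573, 752, 997 and 845, and the H3 class was the one whose cKO sums both exceeded both wild-type sums. H2A and H4 came close: cKO library A fell just short of wild-type library B, at 1755 against 1759 and 1294 against 1306. Hist1h3c stood at 150, 187, 274 and 195 (log2 fold change 0.46, SE 0.39) and Hist1h3a at 139, 232, 187 and 245 (0.25, SE 0.43). Hist1h3g had 46.3, 54.5, 126 and 62.8, and Hist1h3f had 28.8, 36.6, 131 and 43.0. Hist1h3e went the other way in cKO library A, at 47.1, 99.4, 19.6 and 108. The highest log2 fold change of all 54 genes was that of Hist2h3c2, 1.41 with an SE of 1.21, from 15.2, 15.9, 97.8 and 18.5. It rests on cKO library A, and this gene was singled out after its values were seen.

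Of the 11 H3 genes 8 had a log2 fold change above 0, with a median of 0.44. Within tag B all 11 were higher in cKO than in wild type, by 0.06 to 0.86 on the log2 scale, with a median of 0.21 (49.3% of all tested genes were higher in that pair). Within tag A 7 of 11 were higher (46.8% of all tested genes), with a median of 0.81. This class was picked out after its values were seen, and several H3 genes share long identical stretches, so the 11 values are not independent.

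H4 genes summed to 985, 1306, 1294 and 1443. Hist1h4i, the most abundant, had 521, 609, 738 and 833, with both cKO libraries above both wild-type libraries (565 ± 62.7 and 785 ± 67.4, SD, n = 2). Its log2 fold change was 0.48 (SE 0.24) and its unadjusted limma p, 0.0980, was the lowest of the 54, with an adjusted p of 0.771. The authors' deposited table gives it p = 0.0320 and an adjusted p of 1.000. The change was of like size within both tags, 0.50 in A and 0.45 in B on the log2 scale. Hist1h4d had 102, 165, 145 and 138, Hist1h4h had 48.6, 112, 72.6 and 102, and Hist1h4c had 54.7, 93.2, 86.6 and 71.4. In these 3 genes the cKO values lay between the wild-type values. For H2A, H2B and H4 the fold changes were split nearly evenly, with 6 higher and 6 lower, 8 and 6, and 6 and 6.

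**Figure D2:**
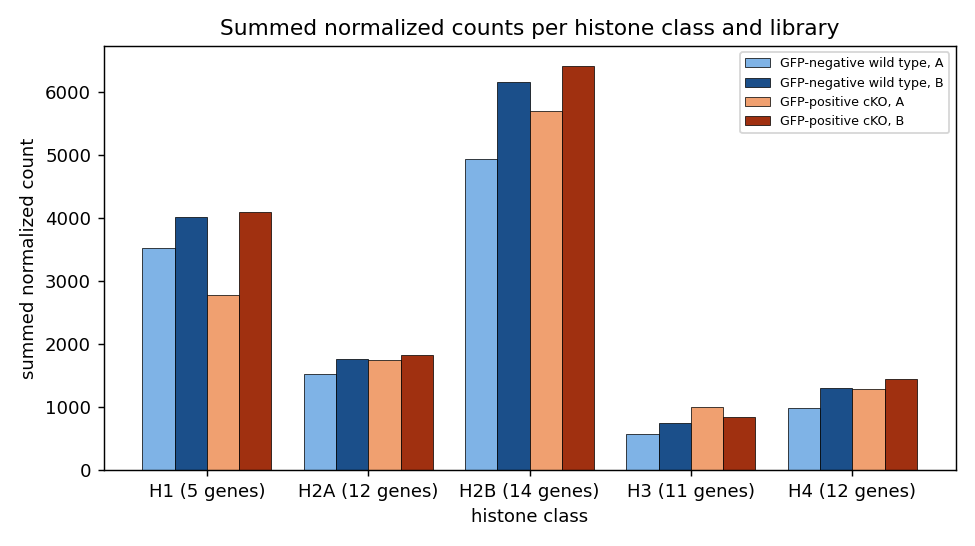
Summed normalized count of each histone class in the 4 libraries, 1 bar per library, with the number of genes per class on the horizontal axis. H2B and H1 hold the most reads, and H3 is the class whose cKO bars (997 and 845) both exceed its wild-type bars (573 and 752). In H2A and H4 the bar of cKO library A falls just short of that of wild-type library B.

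The spread between libraries of a group depended on level too. The median absolute log2 difference between the wild-type libraries was 0.48 for the 54 genes and 0.20 for all tested genes. At a mean under 100 it was 0.59 for the cluster genes and 0.42 for all, and at 100 or more 0.33 and 0.18. Between the cKO libraries it was 0.89 for the 54 and 0.42 for all, but 1.54 and 2.56 at a mean under 100 and 0.37 and 0.36 at 100 or more. Within these ranges the cluster genes had the larger difference between the wild-type libraries but not, for low genes, between the cKO libraries. Neither was tested, and the ranges do not match the levels. The median of the means was 44.6 for the cluster genes and 33.8 for all under 100. At 100 or more it was 233 and 2357, so a difference of level remains there. Wild-type library B was above A in 43 of 54 genes (50.6% of all tested genes were), by a median log2 difference of 0.36. Among the H2B genes it was 12 of 14, with a median of 0.80.

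The cKO libraries did not place the genes alike. cKO library A was above the other 3 in 17 genes (37.8% of all tested genes), below them in 22 (44.7%) and between them in 15. Hist1h2bl, a member only through that library, is among the 17. cKO library B was above both wild-type libraries in 23 (28.7% of all tested genes), below both in 9 (32.4%) and between them in 22. Within tag A the log2 differences between cKO and wild type ran from −6.10 to 2.64 with a median of 0.20. Within tag B they ran from −1.05 to 0.86 with a median of 0.00.

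The low end of the tag A range came from genes with no read in cKO library A. There were 9 of them (7.42% of all tested genes were at 0 there): Hist1h4j, Hist1h4b, Hist2h2ac, Hist1h2bp, Hist1h3d, Hist1h4a, Hist1h3b, Hist1h4k and Hist1h2ad. Hist1h4j had 67.6, 70.4, 0 and 58.2, and Hist2h2ac had 39.5, 35.9, 0 and 37.7. In all 9 the other 3 libraries lay above 8.38, the value of 3 reads in cKO library A. At the mean level of the other libraries, 6.21 to 23.4 reads per gene would have been counted in cKO library A. The log2 fold changes of Hist1h4j, −3.19 (SE 2.06), and Hist2h2ac, −2.64 (SE 2.10), rest on that 0 and on the added pseudocount. Over genes with a mean under 100, cKO library A was at 0 in 24.3% of the 37 cluster genes and in 45.0% of all tested genes.

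**Figure D3:**
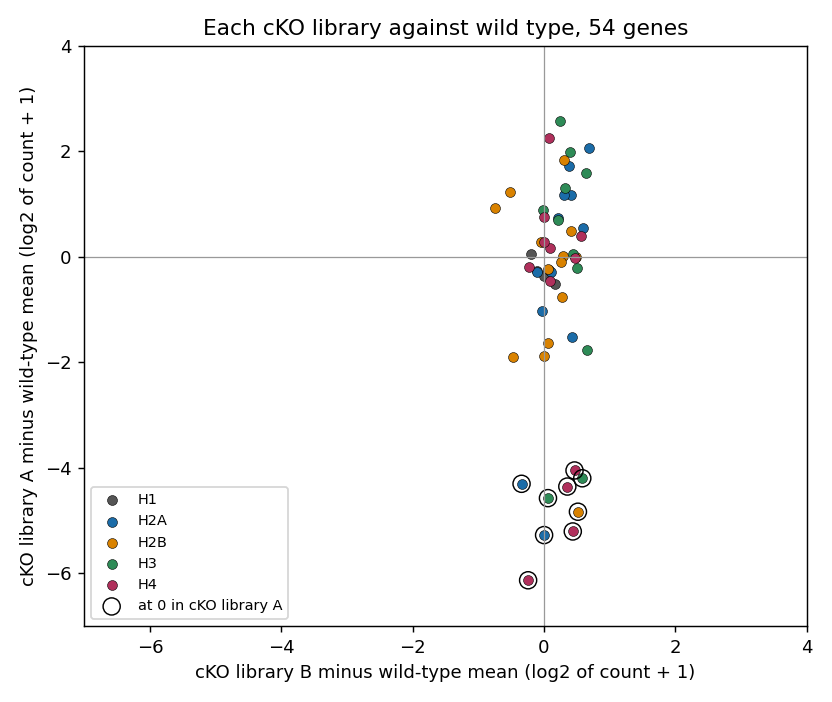
Log2 difference of cKO library B (horizontal) and cKO library A (vertical) from the wild-type mean, on log2 of normalized count plus 1, 1 point per gene, coloured by class. The points spread from about −6 to beyond 2 vertically and stay within about 1 of 0 horizontally, and the 9 ringed genes are at 0 in cKO library A.

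Reads from near-identical copies bear on these values, since no source used here says how reads that fit several genes were counted. For each model, the share of its 50-base stretches found in no other annotated gene's transcript was computed. Over the 54 genes, with Hist2h2bb scored on the model of Gm42743, the median was 51.8% and the range 0% to 100%. Without Hist2h2bb, 24 of 53 genes were under 50%. Hist2h3b, at 0%, still had counts of 21.3, 15.2, 55.9 and 28.4. The values of genes with low shares are uncertain as to which copy the reads came from.

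The libraries were ordered differently at low and at high shares. The 12 genes with a share under 25% summed to 418, 547, 911 and 599, and cKO library A was above the other 3 in 8 of them. Hist1h2bl, a member only through cKO library A, is among the 8. The 14 genes with a share of 75% or more summed to 7796, 8880, 7742 and 9412, and cKO library A was above the other 3 in 2. The median log2 difference of cKO library A from the wild-type mean was 1.20, 0.26, −0.25 and −0.10 for shares under 25%, up to 50%, up to 75% and above (12, 12, 15 and 14 genes). For cKO library B it was 0.40, 0.30, 0.25 and 0.00. Genes with low shares were also less abundant, and the part of either property was not tested. The spans of Hist1h1e and Hist1h2be, introns included, overlap on the minus strand at 23620629 to 23621124 of chromosome 13 (GRCm38). Reads there that fall in exons of both cannot be assigned to 1 gene either.

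**Figure D4:**
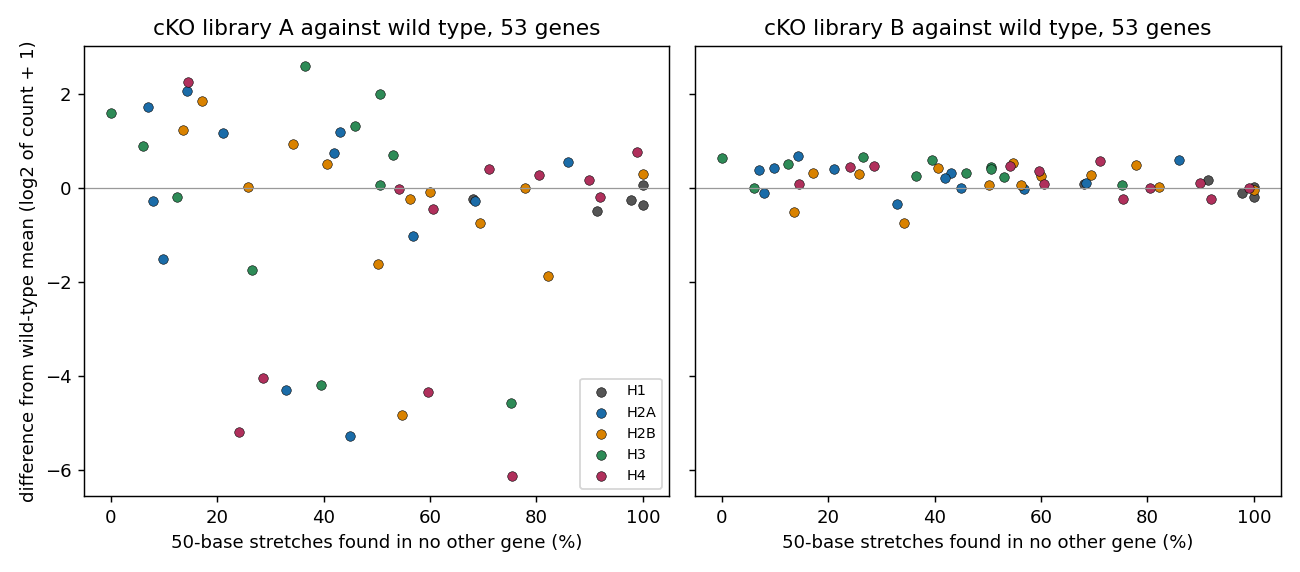
Share of 50-base stretches found in no other annotated gene (percent, horizontal) against the log2 difference from the wild-type mean for cKO library A (left) and cKO library B (right), 1 point per gene, 53 genes. On the left the genes under 25% lie mostly above 0, and on the right nearly all points lie within 1 of 0.

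Many H2A and H2B genes are transcribed away from each other out of a shared stretch of DNA. Among the 68 rows, 12 pairs had starts within 500 bases on opposite strands, and in 9 pairs both genes were members. Hist2h2ac and Hist2h2be start 239 bases apart. Their levels differ widely, a mean of 54.4 normalized counts per kb for Hist2h2ac and 864 for Hist2h2be. The Hist2h2be model has a poly(A) signal and no hairpin, and the Hist2h2ac model the reverse. The share of 50-base stretches found in no other gene is 45.0% for Hist2h2ac and 100% for Hist2h2be. Hist2h2ac also had no read in cKO library A. The part of these properties, or of the promoter, in the difference was not tested. The shared promoter is shown because of that difference in level. It is RefSeq sequence of GRCm38.p6, chr3:96220881-96221130, minus strand, 250 bases up to the start of Hist2h2ac, with its first bases reaching into Hist2h2be. Capitals mark the TATA box TATAAA, the box CCAAT on either strand, and the octamer ATTTGCAT, which lies here on the other strand.
Hist2h2ac: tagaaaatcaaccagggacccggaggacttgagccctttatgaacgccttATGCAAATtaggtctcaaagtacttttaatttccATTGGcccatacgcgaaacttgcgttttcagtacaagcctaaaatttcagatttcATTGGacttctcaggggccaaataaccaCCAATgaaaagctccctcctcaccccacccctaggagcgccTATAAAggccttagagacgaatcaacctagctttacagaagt

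The window holds TATAAA from base 209, CCAAT from base 168 on this strand and from 85 and 140 on the other, and the octamer from base 51 on the other strand. Across the pairs of members the fold changes had the same sign in some pairs and opposite signs in others. Hist1h2ag and Hist1h2bj had log2 fold changes of 0.79 and 0.46, and Hist1h2ae and Hist1h2bg had −0.53 and −0.79. Hist1h2ak and Hist1h2bn had 0.74 and 0.36. Signs differed for Hist1h2ac and Hist1h2bc (0.57 and −0.24), Hist1h2ah and Hist1h2bk (−0.20 and 0.15), and Hist1h2bf and Hist1h2ad (0.09 and −2.32). Hist1h2an and Hist1h2bp had 1.37 and −2.16, Hist1h2bl and Hist1h2ai had 1.07 and −0.55, and Hist2h2ac and Hist2h2be had −2.64 and 0.12. None of these changes passed the test, and those of Hist1h2ad, Hist1h2bp and Hist2h2ac rest on a 0 in cKO library A. Hist1h2bl is a member only through that library.

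The same letters recur over the clusters. Promoters from 250 bases before to 50 after the start (RefSeq, GRCm38.p6, both strands searched, matches allowed to overlap) were at hand for 48 of the 54 genes. TATAAA, the TATA box, was in 30 of 48 (62.5%) and in 14.2% of 27025 promoters of all genes. CCAAT was in 40 of 48 (83.3%), against 37.9% of all promoters. It was in all 37 promoters of H1, H2A, H2B and H3 genes and in 3 of 11 of H4 genes. The octamer ATTTGCAT, the letters that Oct-1 (Pou2f1) binds, was in 11 of 48 (22.9%) and in 1.75% of all promoters. Those were 6 of 11 H2A and 5 of 12 H2B promoters, with 0 in H1, H3 and H4. The windows of Hist1h2ae and Hist1h2bg overlap, as do those of Hist1h2ah and Hist1h2bk, and all of these hold the octamer. Such shared stretches count for both genes, so the promoters are not independent. The 5 include Hist2h2bb, whose identifier is that of the lincRNA Gm42743 in M21. H4 genes thus differed from the other classes in both the hairpin arm and CCAAT. A match is a string of letters and not a measured site.

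Replication-independent histone variants, whose mRNAs are mostly polyadenylated and made throughout the cell cycle, stand outside the clusters. Of 13 listed genes 11 were tested. All 11 had a log2 fold change above 0 (46.7% of all tested genes did), with a median of 0.41 and a range of 0.01 to 0.64. In 9 both cKO libraries lay above both wild-type libraries (17.2% of all tested genes), and 0 passed limma's test or had an unadjusted p under 0.05. Within tag A 10 of 11 were higher in cKO (46.8% of all tested genes, median 0.60) and within tag B 11 of 11 (49.3%, median 0.14). The cluster genes differed in this respect, with 30 and 27 of 54 higher within tags A and B, a difference between the lists that was not tested.

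H3f3b, which encodes the H3.3 variant laid down outside S phase, had 133808, 192060, 131267 and 198306. Its tag A libraries were the low ones in both groups (log2 fold change 0.01). Its mean of 65179 normalized counts per kb was far above that of any cluster gene. Most cluster mRNAs end in the hairpin instead of a poly(A) tail, and the part of poly(A) selection in this gap was not tested. H3f3a, the other H3.3 gene, had 35182, 42967, 55934 and 50789 (0.46, SE 0.20, limma adjusted p = 0.771). H2afz, which encodes the H2A.Z variant found at promoters, had 21309, 25803, 35258 and 30127 (0.47, SE 0.20, limma adjusted p = 0.771). H1f0, the linker histone of resting and differentiating cells, had 55823, 66487, 73173 and 67943 (0.21). H2afx, whose model holds the histone hairpin and then runs on for 822 bases, had 15895, 12269, 31324 and 15180 (0.64, SE 0.37), with cKO library A alone standing apart.

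**Figure D5:**
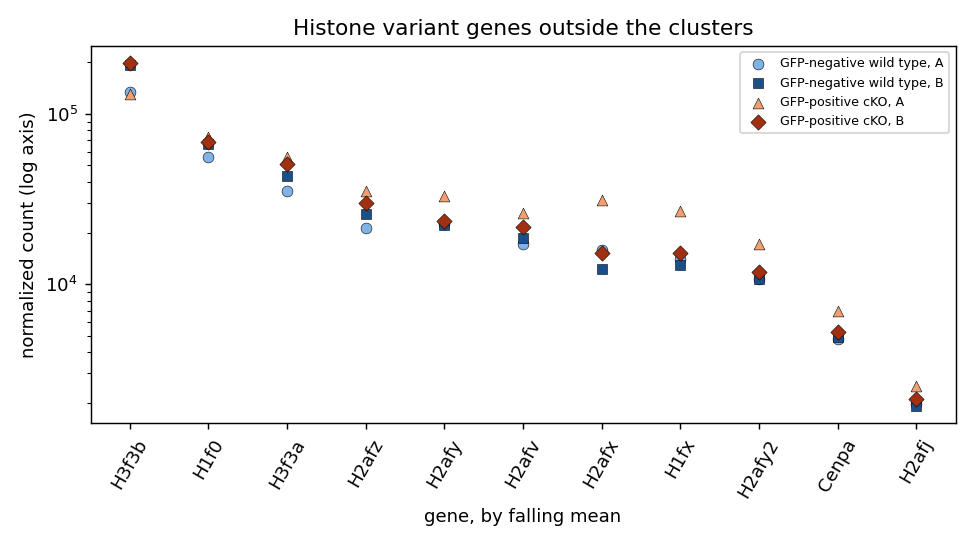
Normalized counts (log axis) of the 11 tested histone variant genes outside the clusters, 1 point per library, by falling mean. In 10 of 11 genes the point of cKO library A is above that of wild-type library A, H3f3b being the exception.

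Other genes act on histone mRNA itself. Of 17 tested genes of histone transcription and pre-mRNA processing (19 listed), 6 were higher and 11 lower in cKO (46.7% of all tested genes were higher). Of the 17, 0 passed limma's test or had an unadjusted p under 0.05, and the median log2 fold change was −0.04. Slbp, the hairpin binding protein, had 8467, 11291, 8080 and 11626, following the tags and not the groups (−0.01). Npat, the activator of histone genes at the start of S phase, had 2686, 3541, 1998 and 3393 (−0.24). Srrt and Ncbp1, which act with the cap of the mRNA, had log2 fold changes of −0.04 and 0.22, and Cpsf3, the nuclease that cuts histone pre-mRNA, 0.20.

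Histone chaperones carry newly made histones to DNA. Of 20 tested genes 15 were higher and 5 lower (46.7% of all tested genes were higher), with a median of 0.13 and 0 passing or having an unadjusted p under 0.05. The most abundant were Anp32e (0.40), a chaperone of H2A.Z, Nap1l1 (0.11), a chaperone of H2A and H2B, Rbbp4 (0.35), a subunit of CAF-1, and Npm1 (0.28). Genes for poly(A) tails and mRNA degradation had the opposite balance, with 5 of 15 higher, 10 lower, a median of −0.18 and 0 called or with an unadjusted p under 0.05. Pabpn1, the nuclear poly(A) binding protein, had 10907, 12653, 3778 and 10623, so cKO library A alone was low (−0.89). The other abundant genes of that list were Pabpc1 (0.27), Papola (0.10) and Cpsf1 (−0.03).

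Cell cycle genes and cell type markers were read beside these values. Genes of S phase, the time of histone synthesis, were higher in 16 of 18 (median 0.22, summed counts 183065, 206185, 241950 and 225816). Genes of G2 and mitosis were higher in 18 of 20 (median 0.38, sums 216071, 220743, 281218 and 234330), against 46.7% of all tested genes. In both lists 0 passed limma's test or had an unadjusted p under 0.05, and in both the sum of cKO library A was the highest, unlike the cluster genes. Retinal progenitor markers were present in every library, at sums of 403936, 401734, 579703 and 445762, with 7 of 8 higher in cKO. Rod markers were lower in 7 of 8 (sums 91302, 82020, 48169 and 55141; 6 at an unadjusted p under 0.05, 0 passing). Microglial markers were lower in 8 of 8, from sums of 19262 and 17824 in wild type to 1132 and 8092 in cKO (8 at an unadjusted p under 0.05, 0 passing). No erythroid marker reached a mean of 10. Of endothelial markers 2 of 4 were higher and of ganglion cell markers 5 of 6. The part of these cell types, or of the shares of cells in S phase and G2, in the histone values was not tested.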

How the data were processed

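Per the submitters' processing notes, the authors used FastQC, TopHat, HTSeq and DESeq with mm10. No source used here gives their versions, the annotation release or the strand setting. The deposited table holds a signal per gene and library, a normalized count: reads divided by 1 size factor per library. All values (100%) were whole multiples of 1 read within 0.01 reads. The authors' p-value columns were copied for members only. Both cKO columns are headed replicate 2 in the file, so they were assigned to their group, and libraries are named by column tag. Labels do not say that libraries of a group come from separate animals, so p-values measure the spread between these libraries, which may be technical.

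Genes with a mean of at least 10 (14480) were fitted on log2(normalized count + 1) with limma 3.58.1 (R 4.3.3, mean-dependent prior, two-sided, Benjamini-Hochberg over all genes at 0.05, group as the only term). With 2 libraries per group, 2 residual degrees of freedom remain before moderation. Fold changes are on this log2 scale, and for low genes they can be smaller or larger than those of edgeR and DESeq2. Hist1h2bl had a log2 fold change of 1.07 in limma, against 1.28 in edgeR and 1.32 in DESeq2. For genes at 0 in cKO library A the limma change was the larger one in Hist1h4j (−3.19, against −1.14 and −1.21). The same held for Hist2h2ac (−2.64, against −0.87 and −0.95). Floors and intervals of reads cover counting error only. edgeR 4.0.16 and DESeq2 1.42.0 on the recovered reads were among the alternatives. Members were matched to GENCODE M21 by identifier (48) or symbol (6). Only annotated transcripts were searched for shared stretches. Named are the 4 members per class with the highest mean, the 3 per direction with the lowest p, the 3 nearest the mean limit on each side, and the 4 genes per comparison list with the highest mean. Genes named beyond this were chosen after their values were seen. Members and gene lists were chosen with earlier results of these data known.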

Additional observations from a re-analysis of the deposited data

How the results depend on the processing

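With all 4 libraries, 0 of the 54 cluster genes were called by limma under other pseudocounts, filters, scaling or prior, or by edgeR or DESeq2. Under these settings 28 of 54 (16 of 30 at a mean of at least 50) were higher in cKO, and the members' median was 0.06 to 0.10 (log2). Over all genes the calls were 0 in edgeR, with 208 at an unadjusted p under 0.05, and 1 in DESeq2, with 369. With the column tags as a replicate block, 0 genes and 0 members were called, and 1375 genes but 0 members had an unadjusted p under 0.05. The labels do not tie the tags to an experiment, and same-tag libraries deviated together only loosely (r = 0.26 across 14480 genes, which are not independent).

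Leaving out 1 library moved the results most, the lone library of a group then being assumed to vary like the pair. Genes called ranged from 0 to 5768 and members called from 0 to 25. Without cKO library A 54 genes and 0 members were called, 2 members had an unadjusted p under 0.05, and 40 were higher. Without cKO library B 5768 genes (39.8%) and 25 members were called, 10 higher and 15 lower. Members higher ranged from 19 to 40, and their median log2 fold change from −0.21 (without wild-type library A) to 0.28 (without wild-type library B), so its sign depends on the libraries used. Leaving out cKO library A gave 0.21, and leaving out cKO library B −0.05. The share of all tested genes that were higher in these fits is not given here. In cKO library A, at 2.79 normalized counts per read, values are coarsest for members with a mean near 10. The 9 members at 0 there would have had 6.21 to 23.4 reads at the mean of the other libraries. No member had 1 to 3 reads there, and the part of depth in the zeros was not tested.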
